A study of Mus musculus with 2 samples.

Results

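Wide distal open regions are stretches of accessible chromatin at least 1500 bp long that lie away from promoters. They were selected on width and position in a list of open regions made by ATAC-seq from megakaryocyte progenitors. In ATAC-seq a transposase cuts exposed DNA and leaves sequencing adapters there. Overlapping summit intervals of the authors' conservative list were joined, and a region was kept when it was 1500 bp or wider and lay entirely over 1 kb from every start site of a protein-coding transcript. This left 107 regions of 64653 distal regions and of 80938 regions in all. The cells were primary megakaryocyte progenitors of adult male C57BL/6J mice, 5 to 6 weeks old. Each library was made from 50000 cells. The labels number the libraries as biological replicates 1 and 2 of 1 group but give both the same donor entry, so separate animals are not established, and replicate 1 names an additional sequencer model. No treatment, allele or second cell type was compared, so no test between groups was possible. The 107 regions are not replicates of anything, and shares of them carry Wilson 95% intervals, which cover counting error only.

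Megakaryocytes are the large bone marrow cells that shed platelets, and their progenitors arise beside the red cell lineage. Accessible stretches far from promoters often act as enhancers, where transcription factors of the GATA, ETS and RUNX families bind in this lineage. Promoters rich in CpG dinucleotides are often open over long stretches. Genes of transfer RNAs (tRNAs), which carry amino acids to the ribosome, are read by RNA polymerase III from promoter elements inside the gene.

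The files list peaks without read totals, so the depth of both libraries is unknown. The list of replicate 1 held 61735 regions, 364 of them at least 1500 bp wide, and that of replicate 2 held 60098, with 253. As a check of the labelled cell type, 24 of 24 genes of megakaryocyte regulators and 20 of 30 megakaryocyte and platelet genes had an open region within 1 kb of a start site. The same held for 18 of 20 erythroid, 16 of 20 stem and multipotent, 15 of 20 granulocyte and 15 of 20 monocyte and macrophage genes, for 14 of 20 neuronal and 10 of 20 B cell genes and for 5 of 20 liver and muscle genes. Over all 21829 symbols of protein-coding genes the share was 61.3%, so the megakaryocyte and platelet list at 66.7% (interval 48.8 to 80.8) lay close to the share of all genes and below several other blood lists. A peak list cannot give the share of any other cell type.

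The sequences below show 3 features described in the results, and all were read 5′ to 3′ from RefSeq's GRCm38 assembly, which is mm10. The first 4 are tRNA genes inside wide distal regions, with the gene in capitals and 40 bases of flank on each side. The gene n-TDgtc5 (aspartate) is shown from chr1:171102331-171102482 on the plus strand, n-TRcct3 (arginine) from chr11:115413264-115413416 on the minus strand, n-TPagg5 (proline) from chr3:51359367-51359518 on the plus strand and n-TPagg7 (proline) from chr7:98815636-98815787 on the minus strand. Both proline genes are identical over all 72 positions, while 27 of the 40 bases before them and 28 of the 40 after them differ.
n-TDgtc5: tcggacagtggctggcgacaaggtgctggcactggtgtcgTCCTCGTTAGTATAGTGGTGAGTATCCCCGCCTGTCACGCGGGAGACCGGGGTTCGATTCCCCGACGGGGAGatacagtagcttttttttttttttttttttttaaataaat
n-TRcct3: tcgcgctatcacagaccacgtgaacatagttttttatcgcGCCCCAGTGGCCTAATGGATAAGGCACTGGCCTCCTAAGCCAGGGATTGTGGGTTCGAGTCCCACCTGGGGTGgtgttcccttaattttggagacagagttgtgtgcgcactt
n-TPagg5: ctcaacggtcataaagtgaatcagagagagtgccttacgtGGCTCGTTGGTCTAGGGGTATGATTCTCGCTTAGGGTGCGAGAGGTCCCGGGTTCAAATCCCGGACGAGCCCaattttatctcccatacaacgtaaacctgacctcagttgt
n-TPagg7: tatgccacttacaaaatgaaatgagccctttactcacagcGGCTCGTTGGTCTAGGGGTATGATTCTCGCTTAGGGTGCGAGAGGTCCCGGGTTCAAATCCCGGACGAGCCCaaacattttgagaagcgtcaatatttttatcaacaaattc

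The next pair shows the strongest summits of the members with the highest signal, near Dcn (chr10:97313738-97313888) and in an intron of Vwf (chr6:125573328-125573478), both on the plus strand. Capitals mark the letters CCAATNAG on either strand, a form of the CCAAT box bound by NF-Y. These windows are shown because they belong to the strongest members, and the letters were found in only 4 of the 107 strongest windows.
Dcn: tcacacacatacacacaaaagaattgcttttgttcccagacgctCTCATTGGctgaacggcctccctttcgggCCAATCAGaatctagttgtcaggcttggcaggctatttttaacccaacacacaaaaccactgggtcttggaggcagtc
Vwf: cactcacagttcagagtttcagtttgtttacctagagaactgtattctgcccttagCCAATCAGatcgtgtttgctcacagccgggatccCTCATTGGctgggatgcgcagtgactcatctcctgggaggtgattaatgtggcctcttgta
The last pair comes from members near genes of the megakaryocyte lists, at the summit with most matches to the GATA, ETS or RUNX letters. The Tal1 member was read at chr4:115096254-115096404 and the Plek member at chr11:16978401-16978551, on the plus strand, with AGGAAG on either strand in capitals, as examples of letters that were no more frequent in members than in other distal regions.
Tal1 downstream: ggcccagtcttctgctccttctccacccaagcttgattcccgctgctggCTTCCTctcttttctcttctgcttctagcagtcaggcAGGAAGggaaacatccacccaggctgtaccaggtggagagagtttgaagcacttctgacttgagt
Plek intron: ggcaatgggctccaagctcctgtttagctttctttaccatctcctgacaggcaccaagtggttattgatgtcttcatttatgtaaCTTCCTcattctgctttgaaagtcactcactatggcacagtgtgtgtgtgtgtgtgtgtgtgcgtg

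Width chose the members, so widths are given as a description. The 107 regions spanned 1500 to 2921 bp with a median of 1635 bp, covered 181 kb or 0.599% of all distal open DNA, and made up 15.6% of the 686 regions of the list that reach 1500 bp. The other 579 lay at promoters. Among the narrowest members were those near Arhgap15 (1502 bp) and Tspan2 (1500 bp). Just outside the threshold lay regions near Podxl (1499 bp), Vsig10 (1498 bp) and Arnt (1497 bp), with signals of 7.55, 8.87 and 9.003 against 8.47 and 5.96 for the named pair just inside. Signals on either side of the threshold thus overlapped, and 81 distal regions fell at 1400 to 1499 bp against 40 at 1500 to 1599 bp.

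Since members are joined summit intervals chosen for width, the number of summits follows in part from the rule and is a description. Members held 505 summits, with a median of 5 and a range of 2 to 11. A single summit was found in 74.9% of the other distal regions, in 0.885% of those of 1000 to 1499 bp (median 3) and in none of the 579 wide promoter regions (median 4). The most summits were in the region in an intron of Myo3a (11), then near Tespa1, Cd247, Spo11 and Trpm1 (7 each). Cd247 encodes the zeta chain of the T cell receptor complex, and Spo11 the enzyme that cuts DNA in meiosis. Neighbouring summits within members lay 319 bp apart at the median (quartiles 252 and 413.5 bp), against 279 bp (240 and 341 bp) within other distal regions.

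Wide distal regions were not the strongest. The signal of a region is that of its strongest summit, as the authors' caller gave it. Its median was 8.17 in the members (3.41 to 12.7) against 8.75 in the other distal regions and 9.74 in wide promoter regions. Distal regions of 1000 to 1499 bp had a median of 10. None of the 107 was among the 1000 distal regions of highest signal, a share of 0 with an interval up to 3.47%. That interval holds the share over all distal regions, 1000 of 64653, so this absence is not called particular to the members. Averaged over all summits of a region, the median was 5.33 in the members and 7.91 in the other distal regions. It was 6.38 at 1000 to 1499 bp and 5.39 in wide promoter regions, which also hold several summits. In 74.9% of the other distal regions the only summit is also the strongest, so a low mean is not particular to the members. The deposited −log10 p of the members' best summit was 89.8 at the median against 49.96 in the other distal regions. The median was 92.3 at 1000 to 1499 bp and 144.7 in wide promoter regions, so a higher value is not particular to the members. The log2 ratio of the median signals was −0.10, but with a minimum width of 1000 bp in place of 1500 bp it was 0.17, so the direction depends on the width threshold. Among members, width and signal had a Spearman correlation of −0.25 (n = 107 regions of the same libraries), against 0.34 over all 64653 distal regions.

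**Figure D1:**
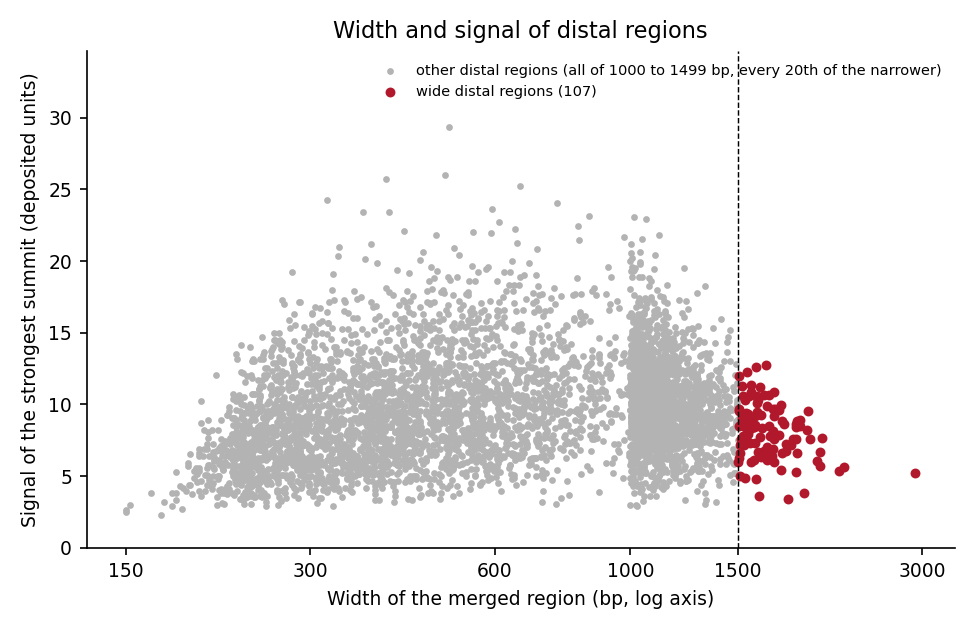
Width of each merged distal region (x axis, bp, logarithmic) against the signal of its strongest summit (y axis, deposited units). Grey points are other distal regions, thinned to every 20th under 1000 bp, red points are the 107 wide distal regions, and the dashed line marks 1500 bp. The red points lie between 3.41 and 12.7, below the strongest narrower regions.

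The widest members are given first. The widest of all lay in an intron of Myo3a, which encodes a myosin of inner ear hair cells (chromosome 2, 22587311 to 22590231). It measured 2914 bp in replicate 1 and 2910 bp in replicate 2, with signals of 5.03 and 5.35. Across 99.97% of its length this region aligned to the mitochondrial genome at 97.5% identity, so its sequence is that of a nuclear copy of mitochondrial DNA. Only 64.8% of its words of 32 bases occurred once in the nuclear genome. How the authors handled reads that also match the mitochondrial genome is not stated in the labels or file headers, and the part of that match in the width and signal was not tested.

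Next in width came a region upstream of Klf9, which encodes a zinc-finger transcription factor responsive to glucocorticoids (chromosome 19, 23134017 to 23136248, 2232 bp). Its signal was 5.48 in replicate 1 and 5.31 in replicate 2, but the widest piece measured only 1235 bp and 1373 bp in their own lists, and the start of the long noncoding RNA gene 2410080I02Rik lay within 250 bp of its strongest summit. The third, 64.1 kb upstream of Ppara (2195 bp), the gene of a nuclear receptor for fatty acids, was narrower in both lists but stayed above 1500 bp, at 1855 bp and 1747 bp. Its signal was 4.69 in replicate 1 and 5.80 in replicate 2.

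The region near Egr1, an early growth response transcription factor, measured 2053 bp, with signals of 7.17 and 7.81. Those near Tomm20, a receptor of mitochondrial protein import, and Wdr26, a subunit of a ubiquitin ligase, measured 2040 bp and 2039 bp. Wdr26 and Tomm20 kept at least 1500 bp in both replicates, while the Egr1 region measured 1169 bp and 1159 bp. The remaining 4 of the 10 widest were near Spo11 (2020 bp), Zfp958 (1964 bp), Plek (1949 bp) and Ttc39a (1940 bp). The Spo11 region was not listed in replicate 1. Apart from Plek at 9.55, the 10 widest had signals of at most 8.19.

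The strongest members are given next. The highest signal, 12.7, belonged to a region 165 kb upstream of Dcn, which encodes the matrix proteoglycan decorin (chromosome 10, 97312469 to 97314132), at 11.5 in replicate 1 and 13.01 in replicate 2. It held a strong pair of summits, of 11.9 and 12.7, among 4 weaker ones of 2.06 to 4.05. The second lay in an intron of Vwf, the gene of von Willebrand factor, which tethers platelets to injured vessel walls (chromosome 6, 125572338 to 125573940, signal 12.6). In the Vwf region 1 summit stood out, as the other 4 measured 3.53 to 5.17. The strongest summit windows of both are the pair printed above, and both windows held the CCAAT letters at 2 places.

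The third strongest, near the olfactory receptor gene Olfr725 (12.3), had 87.9% single-copy words. Behind it came regions near Tspan2, a tetraspanin gene (11.97), Spp1, the gene of osteopontin (11.3), and Ppp6c, a protein phosphatase gene (11.3). The rest of the 10 were near Ccne1, the gene of cyclin E1 (11.2), Otulinl (10.9), Zfp119b (10.9) and Sh3kbp1, an adaptor protein gene (10.7). Apart from the Vwf and Sh3kbp1 regions, which were intronic, all 10 lay outside protein-coding genes. So did 75 of all 107 members (70.1%), and the location is not called particular to the strongest.

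Both libraries listed nearly all members, but often as narrower pieces. A member counted as listed when at least 50% of it, or of the overlapping region, was covered. Of the 107, 101 were listed in replicate 1, 102 in replicate 2 and 99 in both (92.5%, interval 85.9 to 96.2), against 59.6% of the other distal regions. Since the conservative list was made from both libraries, this is no independent check. Any overlap of 1 bp gave the same 92.5%, and a wider region has more chances of an overlap. By width the share was 49.2% under 500 bp, 78.1% at 500 to 999 bp and 89.5% at 1000 to 1499 bp, close to the members. The higher share of the members thus cannot be told apart from their width. All 107 were in the longer pseudoreplicated lists of both replicates.

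Width held up less well than presence. In its own list a member overlapped a region of at least 1500 bp in 49 cases for replicate 1 and in 37 for replicate 2. In 26 of 107 (24.3%, interval 17.2 to 33.2) it did so in both, and in 47 in neither. Members were split into more than 1 region 23 times in replicate 1 and 33 times in replicate 2. Only 42.1% had 90% of their length covered in both lists. For wide promoter regions the share at 1500 bp or more in both replicates was 25.7%. In neither replicate it was 39.4% for wide promoter regions and 43.9% for the members.

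**Figure D2:**
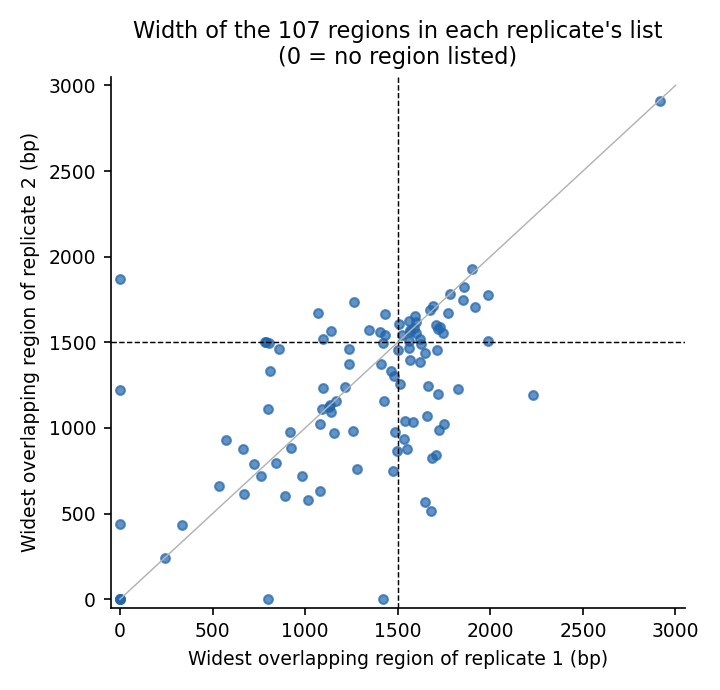
Width of the widest region that overlaps each of the 107 members in the list of replicate 1 (x axis, bp) and of replicate 2 (y axis, bp), with 0 for none. Dashed lines mark 1500 bp and the grey line equal width, and 26 points lie at or beyond both dashed lines.

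The members absent from at least 1 replicate's list numbered 8, of which 3 were absent from both lists. The 3 of them with the highest signal were near Zfp53 (9.43, listed in replicate 2 only), H2al1j (7.20, listed in replicate 1 only) and Mtcl1 (7.19, in neither). The second Tspan2 region and the one nearest 2010315B03Rik were in neither as well. The latter was 80.6% repeat-masked and had 62.5% single-copy words.

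Where both replicates listed a member, the signals were close. Over these 99 members the Spearman correlation of signal was 0.901, and over 38485 other distal regions it was 0.8995. Signals of replicate 2 over replicate 1 had a median log2 ratio of 0.11 in the members and 0.08 in the others, and 75 of the 99 were higher in replicate 2. The highest ratios were near Ppp6c (9.26 and 11.9 in replicates 1 and 2, log2 ratio 0.36), Otulinl (0.34) and Ppara (0.31). The lowest were near N4bp2 (11.01 and 9.07, log2 ratio −0.28) and Gsdmd, the gene of the pore-forming protein of pyroptosis (−0.22). How the signal was scaled between the libraries is not stated. The SD of the log2 ratio was 0.130 over the members and 0.191 over the other distal regions. At 1000 to 1499 bp it was 0.155, and in wide promoter regions 0.116. Ratios ran from −0.28 to 0.36 among the 99 members and from −1.20 to 1.03 among the 38485 other distal regions. A range widens with the number of regions, so these ranges are not compared.

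Some wide distal regions held transfer RNA genes. Of the 107, 9 held at least 1 of the 403 tRNA genes that RefSeq annotates on the main chromosomes (8.41%, interval 4.49 to 15.2), against 0.228% of the other distal regions. The share was 0.122% under 500 bp, 0.282% at 500 to 999 bp and 2.18% at 1000 to 1499 bp. A wider region holds more of any feature, so the count was also set against length. Members held 104.9 tRNA genes per Mb of open DNA (19 genes), regions of 1000 to 1499 bp 26.8 and the other distal regions 5.79. The tRNA genes were looked up after the summit windows had been read.

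Members with more than 1 tRNA gene numbered 6 of these 9. The region nearest Cfap126 (chromosome 1, 171101721 to 171103491, 1771 bp) held 4, for leucine, aspartate, glycine and glutamate, of which the aspartate gene is printed above. Its signal was 6.31 in replicate 1 and 6.46 in replicate 2. The regions nearest Abt1 and Atp5h held 3 each, for valine (2 genes) and alanine and for arginine. Abt1 sits beside the large histone gene cluster of chromosome 13, and the next member on that chromosome, 141 kb away, held a RefSeq start of H1f3, a linker histone gene.

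The regions nearest Elf2, Wnt11 and Plxdc1 held 2 each, for proline in the first pair and cysteine in the last. The single genes were those for threonine (Rab11fip4), glutamine (Gm17651) and phenylalanine (Dct). In all, the 19 genes served 12 amino acids and had 17 different sequences.

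Summits lay near most of these genes. For 17 of the 19 (89.5%, interval 68.6 to 97.1), the nearest summit lay within 100 bp of the first base of the tRNA gene, at a median of −27 bp (range −166 to 178 bp, negative values being upstream), and for 13 it lay upstream. Summits are dense in wide regions, and 59.9% of all bases of these 9 members lie within 100 bp of a summit. In the other distal regions a summit lay within 100 bp for 132 of 174 tRNA genes (75.9%, interval 69.0 to 81.6), at a median of 24 bp, and for 67 it lay upstream. The intervals for tRNA genes in members and elsewhere overlap, so nearness of a summit is not called particular to the members. At n-TRcct3, printed above, the strongest summit of its region (8.17) lay 39 bp upstream, and at n-TPagg5 the strongest (7.25) lay 27 bp upstream. The exceptions were n-TRcct5 of the Atp5h region (−166 bp) and n-TQctg2 of the Gm17651 region (178 bp). All 9 regions were listed in both replicates, 4 of them at 1500 bp or more in both and 3 in neither. Their signals, 6.62 to 10.6 with a median of 8.17, overlapped those of the other members, and 6 of the 9 were CpG-rich as defined next.

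**Figure D3:**
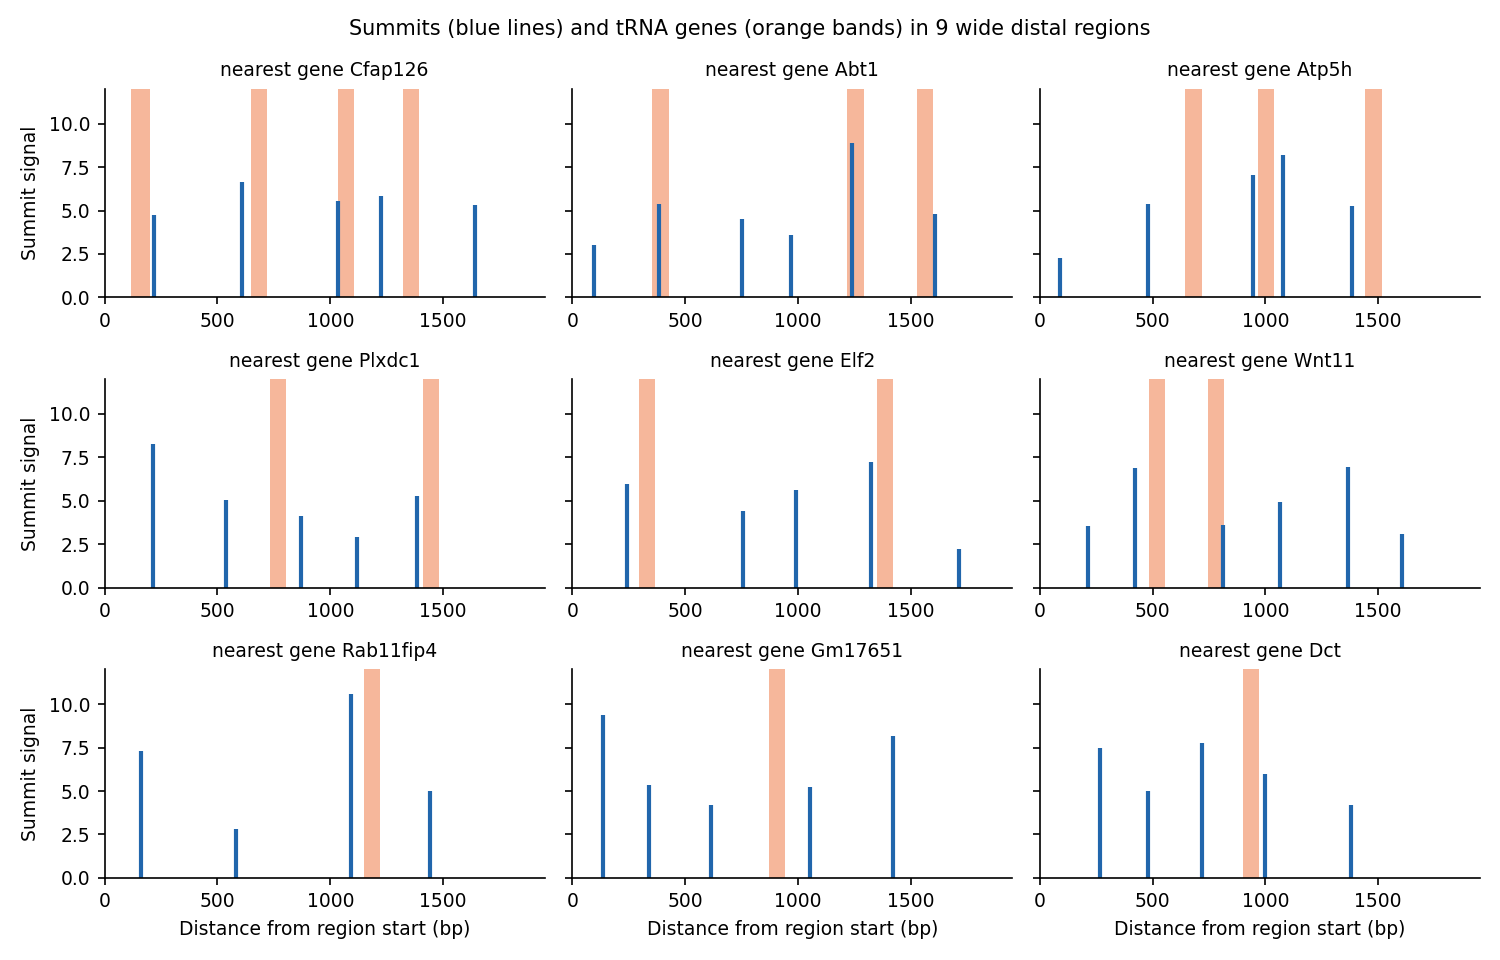
Summits in the 9 wide distal regions that hold tRNA genes, with distance from the region's start (x axis, bp) and the deposited signal of each summit (y axis). Blue lines are summits and orange bands tRNA genes, and 17 of the 19 bands have a summit within 100 bp of the gene's first base.

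CpG content split the members. A region was called CpG-rich when its GC content was above 50% and its ratio of observed to expected CpG above 0.6. By this measure 23 of 107 members were CpG-rich (21.5%, interval 14.8 to 30.2), against 2.31% of the other distal regions, 10.2% of those of 1000 to 1499 bp and 84.3% of wide promoter regions. The median ratio was 0.358 in the members, 0.215 in the other distal regions and 0.764 in wide promoter regions. The highest, 0.903, belonged to the region upstream of Arid1a, a subunit of the SWI/SNF remodelling complex. Ppara reached 0.815, Lor 0.807 and Zbtb20 0.782.

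Starts of genes of other types were frequent inside members. In GENCODE, 17 of 107 held the start of a gene not annotated as protein coding (15.9%, interval 10.2 to 24.0), against 2.15% of the other distal regions and 10.9% of those of 1000 to 1499 bp. Per Mb of open DNA the members held 110 such genes, the 1000 to 1499 bp class 116 and the other distal regions 49.1. Per length, the members thus stood no higher than the next narrower class. Long intergenic noncoding RNA genes accounted for 9 of the 17 members and antisense genes for 3, and only 7 had such a start within 250 bp of the strongest summit. The pair of pseudogenes in the Myo3a region, Gm13340 and Gm13341, lie in its mitochondrial-like sequence.

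RefSeq placed a transcript start in 18 members (16.8%), against 2.66% of the other distal regions and 13.3% of those of 1000 to 1499 bp. The interval for the members, 10.9 to 25.03, holds the value of that narrower class. In 6 of the 18 members it was an mRNA start, namely of Cd247, H1f3, Zbtb20, Ptpmt1, Spo11 and Ttc39a. The rule used GENCODE M21 starts alone, so these 6 are distal by that annotation only. With both annotations, 25 of 107 held a start (23.4%, interval 16.4 to 32.2), against 3.82% of the other distal regions and 17.3% at 1000 to 1499 bp. Among CpG-rich regions the share was 39.1% in the members (9 of 23, interval 22.2 to 59.2), 30.8% in the other distal regions and 56.6% at 1000 to 1499 bp. Among the rest it was 19.0% in the members (16 of 84, interval 12.1 to 28.7), 3.18% and 12.8%. Both intervals of the members hold the value of the 1000 to 1499 bp class.

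Regulatory elements that RefSeq curators list overlapped 5 members (4.67%, interval 2.01 to 10.5), against 0.435% of the other distal regions and 1.71% of those of 1000 to 1499 bp. All 5 were enhancers, in the regions nearest Reep3, Rgs6, Mtcl1, Zdhhc13 and Blm. These are elements from any tissue and cell type. A wider region overlaps more of them, and this count was not set against length.

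Members lay outside protein-coding genes more often than other distal regions. Only protein-coding gene models were used here, so a region called intergenic may lie in a gene of another type. The strongest summit was in an intron in 28 (26.2%, interval 18.8 to 35.2), against 47.5% of the other distal regions and 39.6% at 1000 to 1499 bp. Another 4 were exonic, and 75 (70.1%) were intergenic, against 48.6%. The nearest protein-coding start site was 17.8 kb away at the median, against 22.3 kb, and 55 of 107 lay upstream of it. Of the members, 33 were within 10 kb of a start site and 19 were over 50 kb away. Quartiles of the distance were 8681 and 34565 bp in the members, against 8818 and 57005.5 bp in the other distal regions. The counts by distance and side were made for members only, so they are not called particular to them.

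**Figure D4:**
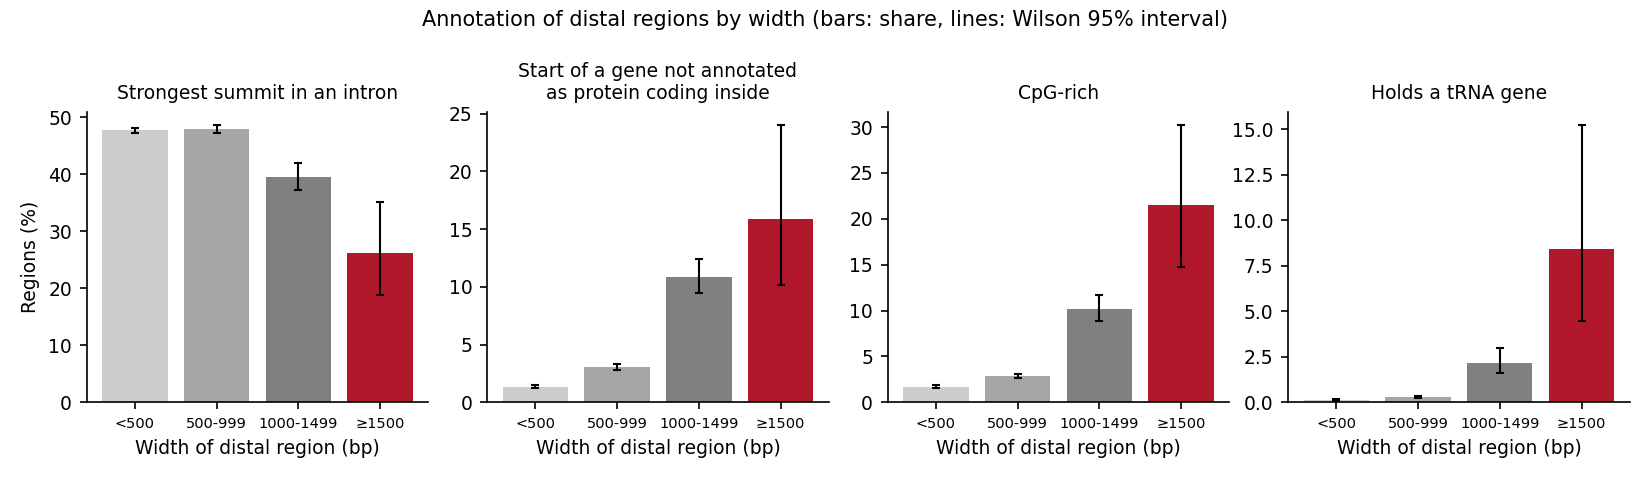
Share of distal regions (y axis, %, each panel with its own scale) by width class (x axis, bp) that are intronic, hold the start of a gene not annotated as protein coding, are CpG-rich or hold a tRNA gene. Bars are shares, lines Wilson 95% intervals, and the red bar is the 107 members, at 26.2%, 15.9%, 21.5% and 8.41%.

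Few genes of the blood lists had a member nearby. Of 21853 protein-coding genes, 194 (0.888%) had a wide distal region within 50 kb of a start site, and of the 54 genes on the megakaryocyte lists 4 did (7.41%, interval 2.92 to 17.6). These were Vwf, Plek, Mafk and Tal1. The lists were assembled with results of these data known, and 4 genes are too few to call anything particular to them.

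Plek encodes pleckstrin, a target of protein kinase C in platelets. Its member (chromosome 11, 16976705 to 16978653) lay in its own intron, 25.8 kb downstream of the start site nearest to the summit, with signals of 8.72 in replicate 1 and 10.03 in replicate 2. A pair of summits of 9.55 and 9.36, at 508 and 1771 bp from its start, carried it, and neither replicate listed a piece wider than 760 bp. The window of the second of them is printed above.

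The Vwf member lay 20.4 kb downstream of the nearest Vwf start site. It measured 11.6 in replicate 1 and 12.7 in replicate 2, and 1600 bp and 1553 bp wide. Vwf is also a gene of the endothelial list, and a peak list cannot say from which cells in a preparation a region comes. None of the other 16 endothelial genes had a member within 50 kb.

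Tal1 encodes a basic helix-loop-helix transcription factor of stem, erythroid and megakaryocytic cells, and the DNA downstream of it is known to hold blood enhancers. The member lay 36.4 kb downstream of its nearest start site and closer to Pdzk1ip1 (chromosome 4, 115095432 to 115097104). Signals were 6.54 in replicate 1 and 7.40 in replicate 2, and the widths 1719 bp and 1197 bp. Mafk encodes a small MAF protein, which can be a subunit of the megakaryocyte factor NF-E2. Its member (chromosome 5, 139803664 to 139805204) lay 6.80 kb downstream of the nearest Mafk start site, and its strongest summit fell in an exon of the neighbouring gene Tmem184a. Its signals were 7.82 and 8.70, and it was at least 1500 bp wide in both (1521 bp and 1540 bp). Its strongest summit window held AGATAA and AGGAAG once each.

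Outside the megakaryocyte lists, 1 of 22 genes of thrombopoietin and JAK-STAT signalling, Jak1, had a member, 26.9 kb upstream of its start site with signals of 9.29 and 8.75. This kinase acts downstream of cytokine receptors, and its member was CpG-rich. Of 20 monocyte and macrophage genes only Fcgr3, an Fc receptor gene, had one, and that was the region with 4 tRNA genes. Within 50 kb, no gene of the erythroid, stem cell, granulocyte, mast cell or B cell lists had a member. Nor did any gene of the T and NK cell, proplatelet cytoskeleton, neuronal or liver and muscle lists. The member with Prdm16, of the stem cell list, as its nearest coding gene lay farther from it than 50 kb. With 18 to 22 genes a list, a count of 0 leaves Wilson intervals of up to 14.9% to 17.6%. Tspan2 was the only gene with 2 members, 7.59 kb apart upstream of it, the stronger with 11.97 and the other with 5.96.

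Motif letters were counted in windows of 75 bp on each side of a summit, on both strands. At the strongest summit AGATAA, the GATA letters, occurred in 14 of 107 members (13.1%, interval 7.96 to 20.8), against 13.9% of the other distal regions and 19.6% of those of 1000 to 1499 bp. AGGAAG, for ETS factors, occurred in 29.9% (22.1 to 39.2) against 36.3%. TGTGGT, for RUNX factors, occurred in 15.9% (10.2 to 24.0) against 22.5%. The intervals for the members hold the value of the other distal regions for GATA, ETS and RUNX. The E-box letters CAGNTG stood at 38.3% against 40.1%, and the AP-1 letters TGANTCA at 3.74% against 7.95%.

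The letters GGGCGG, for SP factors, were more frequent. They occurred at 23.4% of strongest summits (interval 16.4 to 32.2), at 6.81% in the other distal regions, at 14.7% in those of 1000 to 1499 bp and at 61.3% in wide promoter regions. A form of the CTCF motif was in none of the 107 windows (interval up to 3.47%), in 0.885% of those of regions of 1000 to 1499 bp and in 2.79% of those of the other distal regions. These matches describe letters, not bound factors.

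Within members, the ETS letters were less frequent between summits than at the weaker summits. AGGAAG was in 29.9% of windows at the strongest summits, in 28.4% (interval 24.2 to 33.01) at the 398 weaker ones and in 18.1% (14.6 to 22.2) of 393 windows midway between summits. In the other distal regions the AGGAAG shares were 36.3%, 28.8% and 21.6%, so the order from summit to between was the same there. For AGATAA the shares were 13.1%, 10.6% (7.90 to 13.96) and 6.36% (4.35 to 9.22), with intervals that overlap, and in the other distal regions 13.9%, 10.3% and 9.41%. The letters TTGCNNAA, for CEBP factors, did not follow this order in members, at 11.2% (6.53 to 18.6), 6.53% (4.50 to 9.40) and 7.63% (5.40 to 10.7), with intervals that overlap. Nor did the AP-1 letters, at 3.74%, 5.03% and 1.27%, or CCACACCC, for KLF factors, at 2.80%, 3.02% and 1.53%. Taking all summits of a member together, 41 of 107 held AGATAA at a summit, 79 AGGAAG and 48 TGTGGT, while 16 held all of them and 10 none. These counts rise with the number of summits and are not set against narrower regions.

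**Figure D5:**
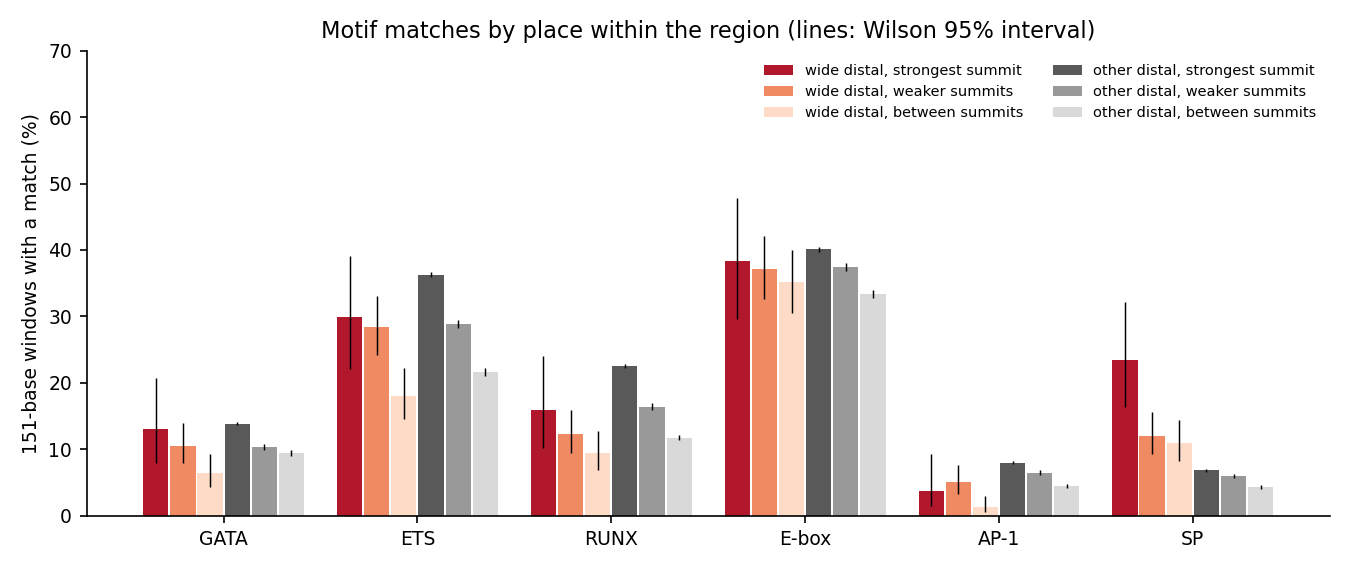
Share of windows of 75 bp on each side with a motif match (y axis, %) for 6 motifs (x axis) at strongest summits, weaker summits and midway between summits. Red shades are the wide distal regions and grey shades the other distal regions, lines are Wilson 95% intervals, and the SP share at strongest summits is 23.4% against 6.81%.

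Sequence that occurs more than once in the genome was found in some members. Fewer than 90% of the words of 32 bases were single-copy in 11 of 107 (10.3%, interval 5.84 to 17.5), against 4.57% of every 50th other distal region and 1.55% of wide promoter regions. At the extreme, the member in an intron of Mid1 on chromosome X had no single-copy word at all, with a signal of 6.30. Words were counted over chromosomes X and Y alike, so sequence that the assembly carries on both counts as repeated. Where the other copies of the Mid1 member lie was not examined. The member on chromosome Y near Gm21860 had 71.1% single-copy words. The member in an intron of Cacng4 had 59.7%, with the E-box letters 74 times. This check was added after the Myo3a region had been seen.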

How the data were processed

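ATAC-seq peak lists of 2 libraries of 1 group were available, on mm10, per the labels. The authors deposited narrowPeak lists with a signal value and the −log10 p of each summit. The sources used here do not give the aligner, the peak caller, duplicate handling or any read shift, and depth is unknown, so widths and summit positions depend on steps that could not be checked. Here overlapping intervals of the conservative IDR-thresholded list (irreproducible discovery rate) were joined, and distances were taken to GENCODE M21 protein-coding transcripts (54361 start sites). Sequence, tRNA genes and enhancers came from RefSeq GRCm38.p6. Alternatives were other lists, widths, start sites, windows and each replicate's own list. Python 3.11.15, numpy 2.4.6, pandas 2.3.3, scipy 1.17.1 and BLAST 2.17.0 were used, and the functions were tested on simulated data. With 1 group there was no test. The members, the 14 gene lists and the 11 motifs were chosen with earlier results of these data known. Named genes were the 10 widest, the 10 strongest, the 5 with most summits, those near list genes, the extremes of the replicate ratio and the regions at the width threshold. For members missing from a replicate the 3 of highest signal were named. The printed windows and the tRNA, CCAAT, RefSeq and single-copy checks were chosen after the data had been seen. A member that the rule for named genes selects is not reported here.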

Additional observations from a re-analysis of the deposited data

How the results depend on the processing

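The number of regions moved from 107 to 1801 at a minimum width of 1000 bp, to 7 at 2000 bp, and to between 37 and 52 in the list of a single replicate. At 1000 bp the log2 ratio of median signal turned to 0.17, the intronic share was 38.8%, the share of megakaryocyte genes with a region 24.1%, the tRNA share 2.55% and the CpG-rich share 10.9%. The share over all protein-coding genes was not counted at 1000 bp, so nothing about megakaryocyte genes can be read from the 24.1%. At 2000 bp, with 7 regions, 85.7% were in both replicates, 14.3% were wide in both, intronic or CpG-rich, 28.6% held a start of another gene type, the GATA, megakaryocyte gene and tRNA shares were 0, and the log2 ratios were −0.61 (signal) and 0.059 (replicates). Presence in both replicates fell to 42.1% where 90% of the region had to be covered and was 100% in the pseudoreplicated lists. The signal ratio was −0.57 with the mean over summits and −0.27 to −0.23 without a replicate, where the GATA share was 5.77% to 10.8% and the CpG-rich share 29.7% to 30.8%. Causes were not tested. Of 67 alternatives, 41 stayed close to the reported value, including all that left out the 11 regions with under 90% single-copy words. Close meant inside the Wilson interval of a share, 71.3 to 160.5 for the number of regions, or a set range for the log2 ratios. This is a loose measure. It takes in 82 regions with start sites of every gene type, a GATA share of 19.2% at 1000 bp and a megakaryocyte gene share of 3.70% within 20 kb. No paired analysis was possible because there is 1 group. Unknown depth limits what absence from a list can say.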

Other observations

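Both strongest members, near Dcn and in Vwf, held the letters CCAATNAG at 2 places in the window of their strongest summit, which was noticed on reading the printed sequences. Over all members 4 of 107 windows held these letters (3.74%, interval 1.46 to 9.22), the others being near Spen, the gene of a transcriptional repressor, and Utp14a. The share was 1.85% in the other distal regions and 9.84% in wide promoter regions. Windows with more than 1 match numbered 2 among the members, 61 among 64546 other distal regions and 4 among 579 wide promoter regions. Of 3 other letter sets counted at the same time, TGACGTCA (CRE) was in 1 member window, that of Ppara, and those of YY1 and NRF1 were in none.

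Of the 403 annotated tRNA genes, 19 lay in wide distal regions, 174 in other distal regions, 37 in regions near coding start sites and 173 in none. Distal regions with a tRNA gene were 641 bp wide at the median against 418 bp without, and the 30 with several tRNA genes were 1141.5 bp wide at the median.

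The number of members per chromosome ran from 1 to 11. Chromosome 6 had 1, the Vwf region, beside 3816 other distal regions, while chromosomes 2 and 7 had 11 each, beside 5107 and 3710.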
